A study of Homo sapiens with 2 samples.

Results

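The genes described here encode 3 poly(A)-binding proteins, PABPC1, PABPC4 and PABPN1, and PAIP1, a protein that binds PABPC1. They were taken by their Ensembl gene IDs, ENSG00000070756, ENSG00000090621, ENSG00000100836 and ENSG00000172239, so the group holds 4 of the 8801 gene IDs with a peak in either library. All of their peaks were used, 20 of 25920 in replicate 1 and 27 of 25243 in replicate 2. They were chosen by gene family, and PABPC1 was also selected on its number of peaks found in both libraries. Its counts of such peaks, and its tallies, therefore describe it and test nothing. The data are peak lists of CLIP-seq for MSI2 (Musashi-2), an RNA-binding protein, in the cell line NB4, which comes from a human acute promyelocytic leukaemia. CLIP-seq uses ultraviolet light to join a protein to the RNA in contact with it, and the RNA recovered with an antibody to that protein is then sequenced. There was 1 group of 2 libraries, both made with an anti-MSI2 antibody from cells crosslinked at 400 mJ/cm2. Libraries without MSI2, from input RNA or from a control antibody were not analysed here, so MSI2 binding and repeatable background cannot be told apart. The labels do not say that the replicates came from separate cultures, so their differences may be technical.

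Poly(A)-binding proteins coat the adenosine tail that most messenger RNAs carry at their 3' end. In the cytoplasm PABPC1 holds the tail and also binds the initiation factor eIF4G at the cap, which favours translation, and it shields the tail from some deadenylases while recruiting others. PABPC4 is a paralogue of PABPC1, PABPN1 works mainly in the nucleus, where it stimulates poly(A) polymerase and helps set tail length, and PAIP1 binds PABPC1 and stimulates translation. Musashi proteins bind short UAG-containing sequences and have been reported to bind PABPC1 protein. PABPC1 messenger RNA is known to carry an A-rich stretch near its 5' end that PABPC1 protein binds to limit its own synthesis.

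Each peak has a p-value given by the authors and a whole number at the end of its name, called its tally here. No header or label explains the tally, which was never under 3 and is taken here to behave like a number of reads. Across peaks it ran against the p-value (Spearman rho -0.94 in replicate 1 and -0.92 in replicate 2). The median tally was 4 in each library. The tallies of replicate 1 came to 155598 in all and those of replicate 2 to 133644, which are not sequencing depths. Positions are those of the deposited lists, on hg19, and count from 1. Shared peaks are those that met a peak of the other library on the same strand, with at least 1 nt in common, and a shared peak of replicate 1 is a reproducible peak. Gene IDs stand without names in the lists, and no exon positions of hg19 were used, so exons, introns and untranslated regions are not assigned. For the same reason the levels of blood cell marker genes were not checked in these libraries. No sequence of a peak is shown, because no genome of the files' build was used here.

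MSI2 peaks on these genes were very unequal. PABPC1 had 14 peaks in each library, most with high tallies, and 13 of those of replicate 1 and 14 of those of replicate 2 were shared. PABPC4, PABPN1 and PAIP1 had few and weak peaks, and none of them was shared. Over all genes, 35.7% of the peaks of replicate 1 and 37.3% of those of replicate 2 were shared, and 45.5% of gene IDs had a reproducible peak. Of the 4 genes, 1 had a reproducible peak. Pooled, which weights PABPC1 by its many peaks, the 4 genes had 13 of 20 peaks shared in replicate 1, or 65.0% (95% Wilson interval 43.3% to 81.9%). In replicate 2 they had 14 of 27 shared, or 51.9% (34.0% to 69.3%). Without PABPC1 the counts were 0 of 6 in replicate 1 and 0 of 13 in replicate 2. By the rule of 3 counts, which is rough for so few peaks, these allow shares of up to 50% and 23.1%. The upper Wilson limits were 39.0% and 22.8%. All such intervals and limits cover counting error only, since peaks of a gene are not independent and duplicate reads were removed without a stated molecular identifier.

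PABPC1, on the minus strand of chromosome 8, had peaks from position 101715434 to 101734046, a span of 18.6 kb. The summed tally of PABPC1 was 278 in replicate 1 and 306 in replicate 2, which was the rank of 9 among the 7252 gene IDs of replicate 1 and the rank of 7 among the 7101 of replicate 2. It ranked 130 and 143 by number of peaks. The median tally of its peaks was 18.5 in each library. Its lowest tally was 8 in replicate 1 and 10 in replicate 2, and its highest was 37 and 56. No PABPC1 peak had the lowest tally of the lists, 3.

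A tally of 10 or more was reached by 13 of the 14 PABPC1 peaks in replicate 1 and by 14 of 14 in replicate 2, against 13.2% and 9.53% of all peaks. By the number of such strong peaks PABPC1 ranked 2 in each library, a rank it shared with 1 other gene ID each time, and the highest counts of another gene ID were 14 and 15. Among the 467 gene IDs with 10 or more peaks in replicate 1, its median tally ranked 2, and the median of the others' medians was 4.5. In replicate 2 it ranked 6 of 456, and the median of the others' medians was 4. PABPC1 thus ranked higher by the strength of its peaks than by their number. Strong peaks are shared more often, so its selection on shared peaks also favoured high tallies.

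**Figure D1:**
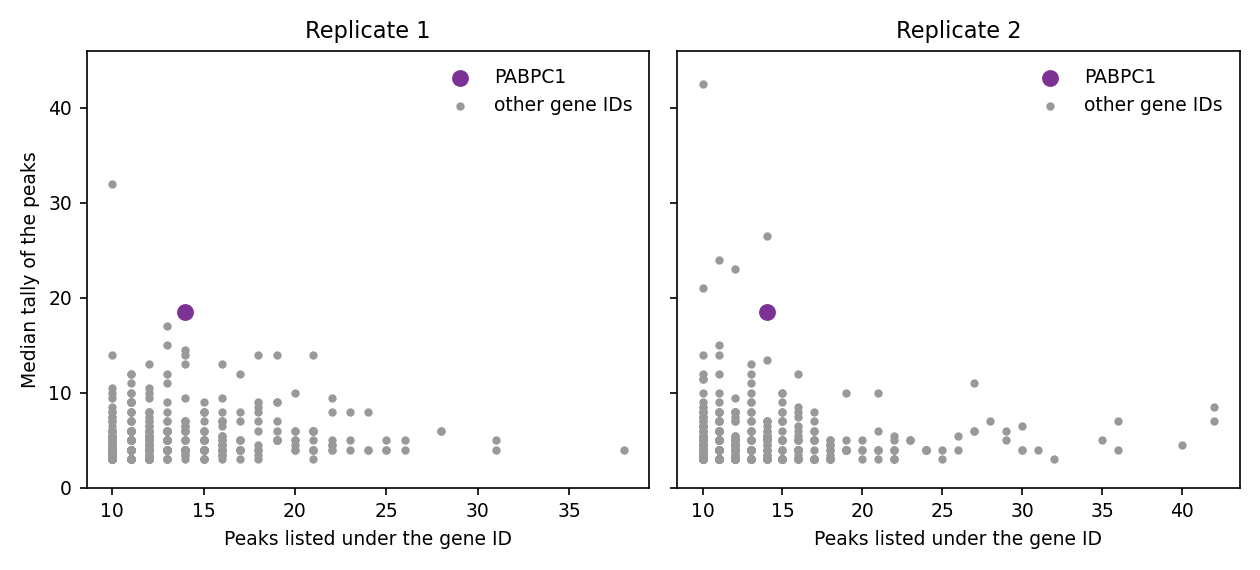
The median tally of a gene ID's peaks (vertical axis) is plotted against its number of peaks (horizontal axis), for gene IDs with 10 or more peaks in replicate 1 (left) and replicate 2 (right). PABPC1, the large point at 14 peaks and a median of 18.5 in each panel, sits above most other gene IDs.

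At tallies this high most peaks of any gene were shared. Of all peaks with a tally of 10 or more, 87.1% in replicate 1 and 89.4% in replicate 2 were shared, so that the high share at PABPC1 was near that of other strong peaks. PABPC1 had 13 of 14 shared in replicate 1, or 92.9% (Wilson interval 68.5% to 98.7%), and 14 of 14 in replicate 2 (78.5% to 100%). Its 13 reproducible peaks gave it the rank of 10 among 8801 gene IDs, tied among 4, and 0.648% of gene IDs had 10 or more. This rank ran between 1 and 47 with other rules for overlap and other lists. The single PABPC1 peak without a partner also had the lowest tally of the gene. It lay at 101719198 to 101719213, was 16 nt wide, had a tally of 8, and was 2183 nt from the nearest PABPC1 peak of replicate 2.

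The short inner intervals that the lists give within each peak were centred a median of 2 nt apart over the 14 PABPC1 pairs, against 7 nt over 9514 pairs of other genes. For pairs of other genes whose mean tally was 10 or more, the median was 6 nt (2432 pairs). The 4 PABPC1 pairs at the 5' end had a median of 0.5 nt, and the other 10 had 5.5 nt, close to that of other genes. The overlap at PABPC1 had a median of 45 nt, against 38 nt over all pairs of other genes and 56 nt over those with a mean tally of 10 or more. A start or an end was identical in both libraries in 3 of the 14 PABPC1 pairs, or 21.4%, against 13.5% of pairs of other genes. At 101733619 and at 101721687, both downstream edges on this minus-strand gene, the edge was identical in both libraries and the inner interval lay directly against it. Inner intervals against an edge were found in 6.86% of all peaks of replicate 1 and 10.8% of those of replicate 2. Whether exon boundaries lie there was not tested.

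The PABPC1 peaks fell into 7 groups separated by more than 1 kb. The group at the 5' end, from 101733619 to 101734046, was the heaviest by summed tally: it held 4 peaks in each library within 428 nt. From the 5' end inward, the tally of its outermost peak was 18 in replicate 1 and 35 in replicate 2. The next peak had 11 and 22, and the one after it 19 and 38. The innermost, at 101733619 to 101733707 in replicate 1 and to 101733714 in replicate 2, had 37 and 56, the highest tallies of the gene. In every one of these 4 pairs the tally of replicate 2 was the higher. Peak by peak, the 5' group was stronger than the rest of the gene in replicate 2 only. There the median tally was 36.5 against 13, and the tally per kb of covered sequence 484 against 356. In replicate 1 the median was 18.5 in both parts, and the tally per kb was 353 against 368.

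The next group, 3.55 to about 4 kb from the 5' end, held 2 peaks in each library, and these differed in direction. The peak at 101730480 to 101730508 had tallies of 21 in replicate 1 and 24 in replicate 2. Its neighbour at 101730022 to 101730105 had 27 and 11, the highest ratio of replicate 1 over replicate 2 among the PABPC1 pairs. Further in stood 2 isolated peaks. The one 6.25 kb from the 5' end had tallies of 15 in replicate 1 and 10 in replicate 2, and the one at 9.12 kb had 21 and 13.

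A second heavy group lay at 101721396 to 101721841, about 12 kb from the 5' end, with a summed tally of 72 in replicate 1 and 73 in replicate 2. A single peak of replicate 1 there, 111 nt wide with a tally of 35, was listed in replicate 2 as a pair of peaks lying end to end, with tallies of 19 and 18. Beside it a peak only 11 nt wide in replicate 1 and 14 nt in replicate 2 had a tally of 13 in each. The peak at the 3' side of this group had tallies of 24 and 23.

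The group at the 3' end of the span, from 101715434 to 101715586, was light. Its peaks had tallies of 13 and 16 in replicate 1 and 12 and 12 in replicate 2. It held 10.4% of the PABPC1 tally in replicate 1 and 7.84% in replicate 2. The 5' group held 30.6% and 49.3%.

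**Figure D2:**
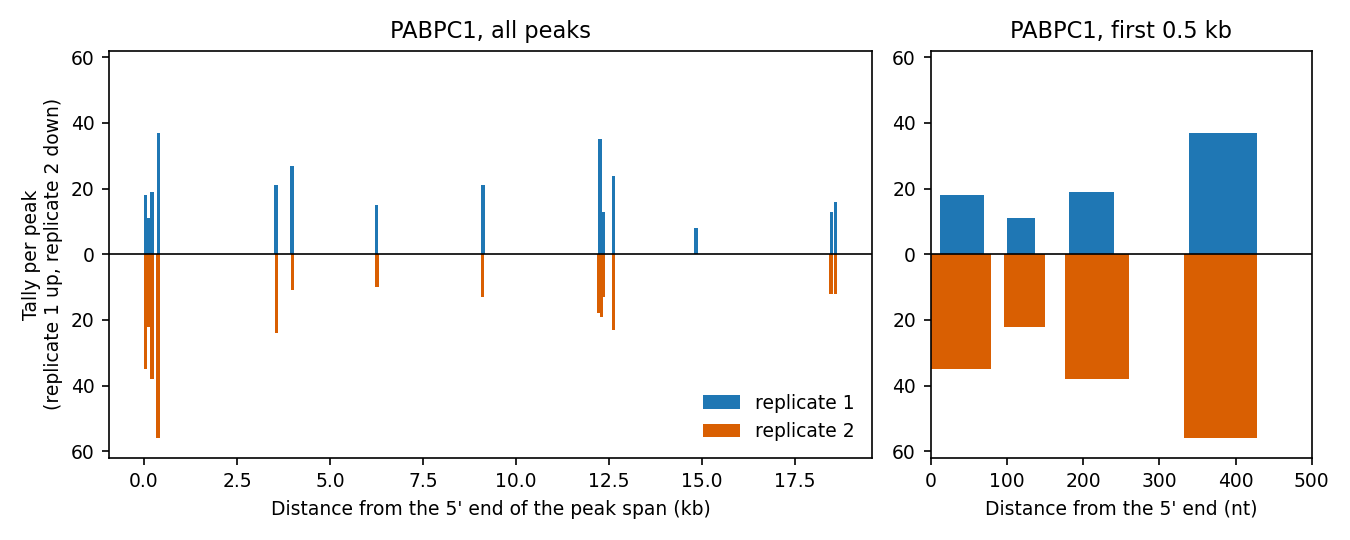
Bars give the tally of each PABPC1 peak against its distance from the 5' end of the peak span, in kb for the whole span (left) and in nt for the first 0.5 kb (right), with replicate 1 upward and replicate 2 downward. Narrow peaks are widened to be visible on the left. Peaks recur at the same places in both libraries, and the 4 at the 5' end reach 37 in replicate 1 and 56 in replicate 2.

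The 5' share of PABPC1 was high among genes with many reproducible peaks, although no test of the difference was made. Among the 57 gene IDs with 10 or more reproducible peaks, the share of the tally in the 5'-most 10% of the peak span ranked 2 for PABPC1 in each library. ENSG00000244005 came close behind, at 30.4% in replicate 1 and 45.9% in replicate 2. For the other 56 the median share was 3.66% in replicate 1 (interquartile range 1.75% to 9.51%) and 4.55% in replicate 2 (2.14% to 12.3%). The tally-weighted mean position of PABPC1, with 0 at the 5' end and 1 at the 3' end, was 0.39 in replicate 1 and 0.30 in replicate 2. The median of the other 56 was 0.72 in each. Counted from the most 5' position, PABPC1 ranked 4 in replicate 1 and 2 in replicate 2, and ENSG00000244005 ranked 1 in each. PABPC1 had no peak between relative positions 0.021 and 0.19, so a different limit within that range selects the same 4 PABPC1 peaks. The shares of the other genes can change with the limit, and ranks at other limits were not computed. These spans run between peaks and include introns, so they are not positions along the mature RNA. PABPC1 has pseudogenes of similar sequence, and how reads shared with them were placed was not tested.

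**Figure D3:**
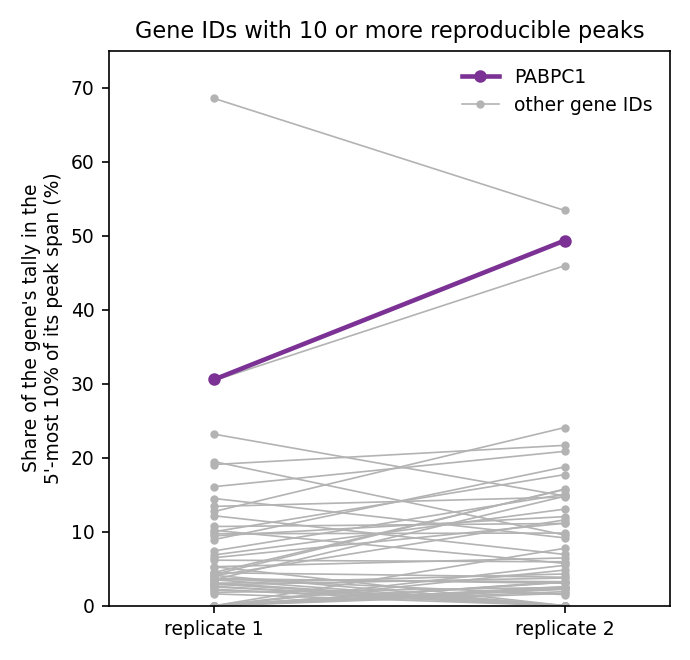
For each of the 57 gene IDs with 10 or more reproducible peaks, the share of its tally (%) in the 5'-most 10% of its peak span is plotted in replicate 1 and replicate 2, with a line joining the values of a gene ID. PABPC1, the thick line, has 30.6% and 49.3%, with 1 gene ID above it in each library.

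The libraries divided the PABPC1 tally differently along the gene. At the 5' end it summed to 85 in replicate 1 and 151 in replicate 2, and over the rest of the span to 193 and 155. The tallies were then set against the ratio of the summed tallies of the lists. On this scale the log2 ratio of replicate 1 over replicate 2 had a median of -1.20 over the 4 pairs at the 5' end (range -1.22 to -0.82). Over the other 10 pairs the median was 0.28 (range -0.41 to 1.08). How often other genes show such a split was not computed, and pairs of 1 gene are not independent. The median over all 14 PABPC1 pairs was -0.13, and without the scaling it was 0.09. The replicate 1 peak with a tally of 35 enters 2 of these pairs, at 0.74 and 0.66. Each is its ratio to only 1 of the end-to-end peaks of replicate 2, with tallies of 18 and 19. Together these exceed 35, so its ratio to both would be negative, and the medians are raised. Of the 10 pairs outside the 5' end, 6 were positive, these 2 among them, and 4 negative. The positive sign of 0.28 therefore comes from counting this peak in 2 pairs.

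Other genes leaned slightly the same way, with spreads much wider than the difference. Those with a peak span of at least 10 kb were used. Their median log2 ratio was -0.22 over 549 pairs in the 5'-most 10% of the span and 0.04 over 5222 pairs in the rest. The interquartile ranges were -0.54 to 0.37 and -0.41 to 0.52, and the unscaled medians were 0 and 0.26. With mean tallies of 10 or more, the scaled medians were -0.08 over 75 pairs and 0.07 over 1275 pairs. Their interquartile ranges, -0.60 to 0.39 and -0.34 to 0.57, overlapped widely. Among the 57 gene IDs with 10 or more reproducible peaks, the difference in 5' share, replicate 2 minus replicate 1, was highest at PABPC1, at 18.8 percentage points. The other 56 ran from -15.1 to 15.5 points, with a median of 1.27, and 34 of them were higher in replicate 2. The split at the 5' end was chosen after its values were seen, and with 1 library for each replicate the difference between the libraries has no further replicate.

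**Figure D4:**
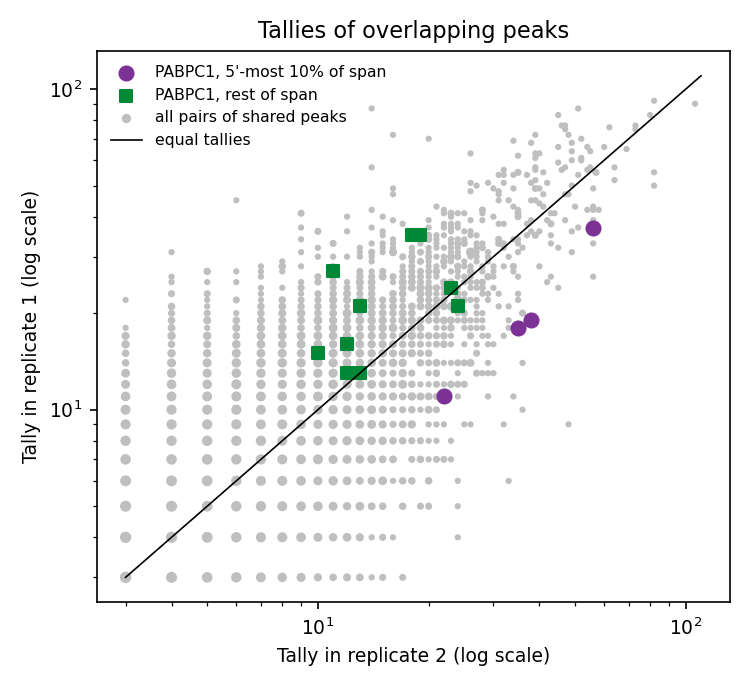
Each point is a pair of overlapping peaks under the same gene ID, with the tally in replicate 2 on the horizontal axis and in replicate 1 on the vertical axis, both on log scales. The line marks equal tallies, and larger grey points stand for more pairs. The 4 PABPC1 pairs at the 5' end (circles) lie below the line, and most of the other PABPC1 pairs (squares) lie on or above it. The squares at 35 in replicate 1 are 1 peak paired with 2 end-to-end peaks of replicate 2.

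The p-values that the authors' lists give were set against those of peaks with an equal tally. In replicate 1 all 4 peaks of the 5' group had a weaker p than the median of other genes' peaks with the same tally, by 1.46 to 2.62 on the log10 scale. In replicate 2 this held for 3 of the 4, and the differences ran from -2.86 to 7.32. Over the rest of the gene, 3 of 10 peaks in each library had a weaker p than that median, with differences of -3.88 to 2.73 in replicate 1 and, in replicate 2, of -6.40 to 1.48. The ranges of the 5' group and the rest overlapped in both libraries. At the highest tallies, 37 in replicate 1 and 38 and 56 in replicate 2, the median rests on only 4 or 5 peaks. The strongest p of PABPC1 belonged in both libraries to the innermost peak of the 5' group, at 2.34e-20 in replicate 1 and 5.50e-30 in replicate 2. The sources used here do not say how the p-value was computed.

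PABPC4, the paralogue of PABPC1, lies on the minus strand of chromosome 1, and its peaks covered positions 40029394 to 40038074. It had 4 peaks in replicate 1 with tallies of 7, 3, 3 and 3 from the 5' end. In replicate 2 it had 7 peaks, each with a tally of 3. Only the peak at 40034490 to 40034563, the one with a tally of 7, was above the lowest tally, and its deposited p was 0.000160. The nearest peak of replicate 2, at 40034584 to 40034611, began 20 nt beyond its end and did not overlap it, though it would count as shared with peaks extended by 100 nt. The other PABPC4 peaks were at least 434 nt from a peak of the other library.

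Several PABPC4 peaks were pieces lying end to end, 1 such contact in replicate 1 and 2 in replicate 2, with widths down to 4 nt. In replicate 2, 4 of its 7 peaks lay in the 3'-most 2% of its span, and no peak of replicate 1 lay there. The tally per kb of covered sequence was 96.4 for PABPC4 in replicate 1 and 172 in replicate 2, values that its very narrow peaks raise, against 363 and 409 for PABPC1. Of all peaks with a tally of 3, 11.9% in replicate 1 and 15.5% in replicate 2 were shared, so 0 shared among so few weak peaks is near the background.

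PABPN1, the nuclear poly(A)-binding protein, lies on the plus strand of chromosome 14. It had 1 peak in replicate 1, at 23792645 to 23792680 with a tally of 3. In replicate 2 it had 5 peaks between 23793240 and 23794481, with tallies of 4, 3, 3, 3 and 4 from the 5' end. The peak of replicate 1 lay upstream of all of these, 559 nt from the nearest. Every PABPN1 peak was also listed, with the same interval and tally, under a second gene ID, ENSG00000258643. These peaks cannot be assigned to PABPN1 alone. That ID had 1 further peak in replicate 1 and none in replicate 2.

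PAIP1, the partner of PABPC1, lies on the minus strand of chromosome 5 and had 1 peak in each library, at opposite ends of its 28.6 kb span. The peak of replicate 1, at 43527405 to 43527455, was at the 3' end and had a tally of 6 and a deposited p of 0.000335. The peak of replicate 2, at 43555967 to 43556004, was at the 5' end and had a tally of 3. They lay 28511 nt apart. Neither position was found by the other library.

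**Figure D5:**
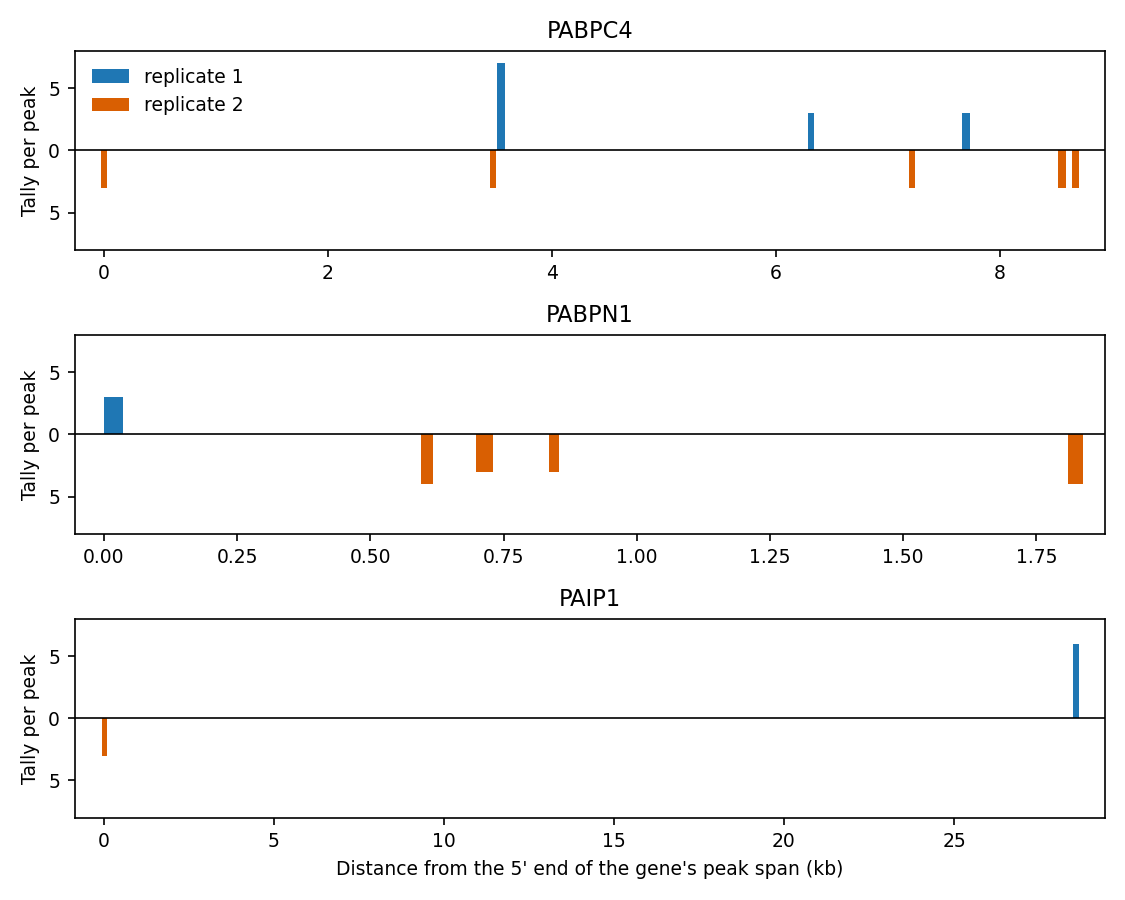
Bars give the tally of each peak of PABPC4 (top), PABPN1 (middle) and PAIP1 (bottom) against its distance in kb from the 5' end of that gene's peak span, with replicate 1 upward and replicate 2 downward. Narrow peaks are widened to be visible. No tally exceeds 7, and no peak of one library overlaps a peak of the other.

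The gene IDs most like PABPC1 were sought by distance over 5 values, each as log2(1 + x): peaks and summed tally in each library, and reproducible peaks. The nearest, at a distance of 0.59, was ENSG00000139163 on chromosome 12, with 13 peaks in replicate 1, 14 in replicate 2, 11 reproducible peaks and summed tallies of 295 and 211. ENSG00000138071 on chromosome 2 followed at 0.68, with 16 and 13 peaks, 10 of them reproducible, and tallies of 275 and 210. The third was a plus-strand gene ID at 65266559 to 65273448 of chromosome 11, at 0.75, with 19 and 19 peaks and 12 reproducible. All 3 had the higher summed tally in replicate 1, as did the lists as a whole (155598 against 133644). PABPC1 had it in replicate 2, like some other gene IDs with 10 or more reproducible peaks. In the 5'-most 10% of the span, these 3 nearest gene IDs had shares of tally of 0%, 10.2% and 19.5% in replicate 1. In replicate 2 the shares were 1.90%, 5.71% and 9.54%, and each was below that of PABPC1. For PABPC4, the nearest gene IDs on chromosomes 9, 2 and 3 lay at distances of 0.20 to 0.30, the last tied with 1 more, and each had 0 reproducible peaks. Likeness here is over 2 libraries and says nothing of shared function.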

How the data were processed

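CLIP-seq peaks of MSI2 were available for 2 replicates of NB4 cells. The submitters' processing notes name STAR 2.3.0e, Bowtie 1.0.0 and cutadapt, and the build hg19. The deposited lists, 1 for each library, are named as trimmed of poly(A) and adapter sequence and freed of duplicate reads. Trimming of poly(A) could affect reads from A-rich stretches, which was not tested. The deposited p-value of a peak comes from the authors' peak calling, was under 0.05 throughout, and served only to describe and rank peaks within a list. The sources used here do not name the peak caller. The total reads of each library are unknown.

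Peaks were assigned by gene ID and matched between replicates in Python 3.11.15 (pandas 2.3.3, NumPy 2.4.6, SciPy 1.17.1), and figures were drawn with matplotlib 3.10.9. The matching was tested on simulated data. No test between groups was possible with 1 group, and none was made. Tally ratios were computed for overlapping peaks under the same gene ID. The members, lists and rules were chosen with earlier results of these data known. All 4 members were named, with the 3 gene IDs nearest to PABPC1 and to PABPC4. A planned list of other genes of poly(A) tail biology, and blood cell markers, could not be looked up because the gene table used here gives no Ensembl IDs.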

Additional observations from a re-analysis of the deposited data

How the results depend on the processing

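No paired analysis was possible because there is 1 group. The planned list of poly(A) genes was not run. PABPC1 had 10 to 13 reproducible peaks under every alternative that matched the 2 libraries. Of 121 recomputed values, 82 stayed within the margin set for them. Some could not move, such as counts of 0 under stricter rules, so this total does not measure stability. Its rank by reproducible peaks was 1 with a reciprocal overlap of 50%, 47 with peaks extended by 100 nt, 3 with the stronger 50% by p, 1 with the strongest 10%, 4 with tallies of 5 or more and 26 with peaks merged within 50 nt. The median relative position of its reproducible peaks, 0.34, became 0.41 with reciprocal overlap, the strongest 10%, merging or replicate 2 peaks. Its median log2 tally ratio changed sign without scaling (0.09). Both medians count the replicate 1 peak with a tally of 35 in 2 pairs, which raises them, so this change of sign is not secure.

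Extension by 100 nt gave PABPC4 1 reproducible peak, and so 2 genes with one. The share of the members' peaks that were shared became 100% in replicate 1 with the strongest 10%. Over all peaks of replicate 1 the strongest 10% gave 55.1%. In replicate 2 the members' share became 87.5% with the stronger 50%, 92.9% with the strongest 10% and 100% with tallies of 5 or more, beside 46.3%, 57.1% and 56.2% over all peaks. These stricter lists drop weak peaks by construction. In replicate 1 the stronger 50% left 1 PABPC4 and 0 PABPN1 peaks, tallies of 5 or more left 1 and 0, and the strongest 10% left 0 of PABPC4, PABPN1 and PAIP1. In replicate 2 the stronger 50% left 0 PABPC4, 2 PABPN1 and 0 PAIP1 peaks, and both other limits left 0 of each. Counting each interval once, under whichever gene ID was listed first, left 1 PABPN1 peak in replicate 2. Without 1 of the replicates all peaks of the remaining library count: 14 for PABPC1, 4 to 7 for PABPC4, 1 to 5 for PABPN1 and 1 for PAIP1. Tallies near 3 limit what can be said of these 3 genes.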
